A study of Homo sapiens with 2 samples.

Results

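ISL1-positive cardiomyocytes, chosen by their own ISL1 counts as cells with 3 or more unique molecular identifiers (UMIs, 1 per captured transcript) of ISL1, were set against ISL1-negative cardiomyocytes, which held 0. A barcode was taken as a cardiomyocyte where it had at least 1000 genes, at most 25% mitochondrial UMIs, 8000 to 30000 RNA UMIs, at least 2000 CPM (counts scaled to a common total) of the troponin TNNT2 and at most 4 UMIs of the epithelial genes VTCN1, GATA3, CLDN4 and WNT6 together. Of the 14829 barcodes, 4336 met this rule. Among these, 728 cells (16.8%) were ISL1-positive and 1818 (41.9%) were ISL1-negative, and 1790 cells with 1 or 2 ISL1 UMIs stood on neither side. All came from 1 HES2 culture (an embryonic stem cell line of human origin), differentiated towards pacemaker cells of the sinoatrial node (SANLPC in the labels) and bearing no other treatment that the labels give. The dissociated cells carried a barcoded CD34 antibody, were sorted with DAPI as live singlets, and were sequenced by the 10x Genomics 3' v3 method. The RNA library and the antibody-tag library of the series share every barcode, so there was 1 culture and no replicate. No p-value is given, and each interval is an exact 95% interval that covers counting error only.

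ISL1 is a LIM homeodomain transcription factor. It marks progenitors of the second heart field, the cell population that adds the right side, outflow tract and venous pole to the early heart tube. Most of its descendants switch it off as they become working muscle, while the sinoatrial node keeps it, and in mice pacemaker cells that lose it acquire features of atrial muscle. NKX2-5, the homeodomain factor of working myocardium, is kept out of most of the node by SHOX2 and TBX3, so that connexins and natriuretic peptides of working muscle remain low there.

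ISL1 itself, used to choose the cells, reached 204 CPM in ISL1-positive cells, on 2907 UMIs with a median of 4 and a maximum of 13 per cell, and was 0 in ISL1-negative cells by the rule. Over all 4336 cardiomyocytes it was 72.4 CPM, against 35.8 CPM in 2912 reference cells of the same depth limits that held over 4 epithelial UMIs and under 500 CPM of TNNT2. At the mean cardiomyocyte level, a cell with 8000 RNA UMIs would hold 0.579 ISL1 UMIs and a cell with 30000 would hold 2.17, so 0 UMIs do not show that a cell lacks the transcript. The counts fell off without a gap, with 1170 cells at 1 UMI, 620 at 2, 357 at 3, 191 at 4 and 180 at 5 or more. Both sides held the muscle transcript that defined them, with TNNT2 at 7361 CPM in ISL1-positive and 6925 CPM in ISL1-negative cells, against 262 CPM in the reference cells. Of the genes of the sarcomere, the contractile unit, 21 of 22 were measured, and their summed level was 80972 CPM and 77966 CPM, against 10817 CPM in the reference cells.

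**Figure D1:**
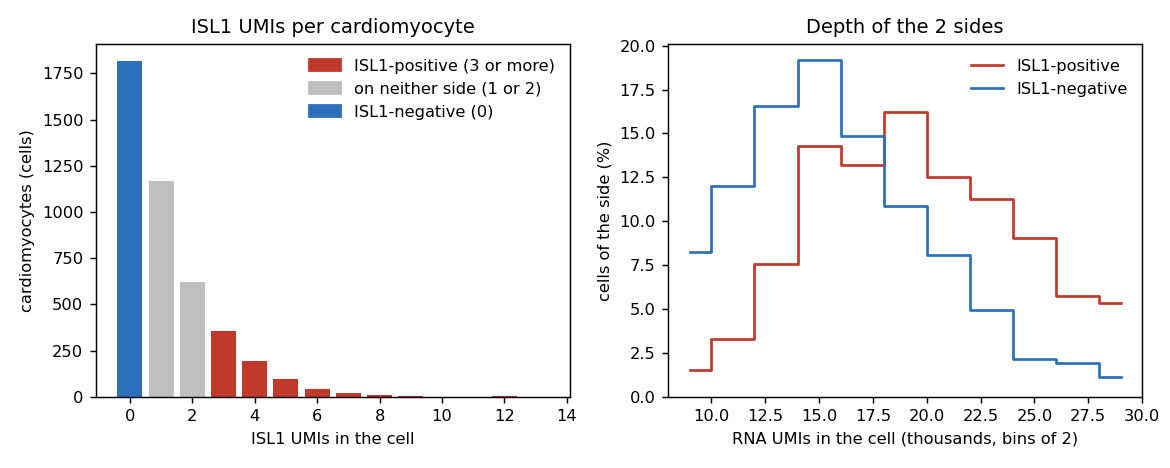
Left, cardiomyocytes (y, cells) by ISL1 UMIs in the cell (x), coloured by side. Right, share of each side's cells (y, %) by RNA UMIs per cell (x, in bins of 2000). The ISL1-positive cells are the 728 at 3 UMIs or more and are deeper, with a median of 19239 RNA UMIs against 15408.5 in the 1818 ISL1-negative cells.

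Because a cell passes 3 UMIs more readily when more of its RNA was read, depth differed between the sides by construction. The median was 19239 RNA UMIs and 4773.5 genes in ISL1-positive cells, against 15408.5 RNA UMIs and 4301.5 genes in ISL1-negative cells. In cells of 8000 to 14000, 14000 to 20000 and 20000 to 30000 RNA UMIs, 6.99%, 16.3% and 29.1% were ISL1-positive, while ISL1 itself stood at 68.2, 71.6 and 75.7 CPM. The mitochondrial share was 12.7% in ISL1-positive and 12.1% in ISL1-negative cells (medians). The caller Scrublet marked 12 ISL1-positive (1.65%) and 53 ISL1-negative cells (2.92%) as doublets. These cells were kept. Without them no named gene changed direction, and the ratios of SLN, MGP and DLK1 were 0.0416, 0.0681 and 0.493. The gene ratios below were also computed with the ISL1-negative cells weighted to the depth of the ISL1-positive cells, called depth-matched.

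For each side, counts were added up over its cells and scaled to CPM, and a gene was measured where the higher side had at least 20 CPM. A gene was called lower where the ratio of ISL1-positive over ISL1-negative was 0.8 or less, and higher where its inverse was. Of 6484 measured genes besides ISL1, 318 (4.9%) were higher and 313 (4.83%) were lower, and the median log2 ratio was -0.01. Depth-matched, 245 of 6521 (3.76%) were higher and 374 (5.74%) were lower. These shares are the background for each group of genes below. A gene near 20 CPM was measured only where 1 side carried it, so counts over measured members describe the list and do not support it.

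**Figure D2:**
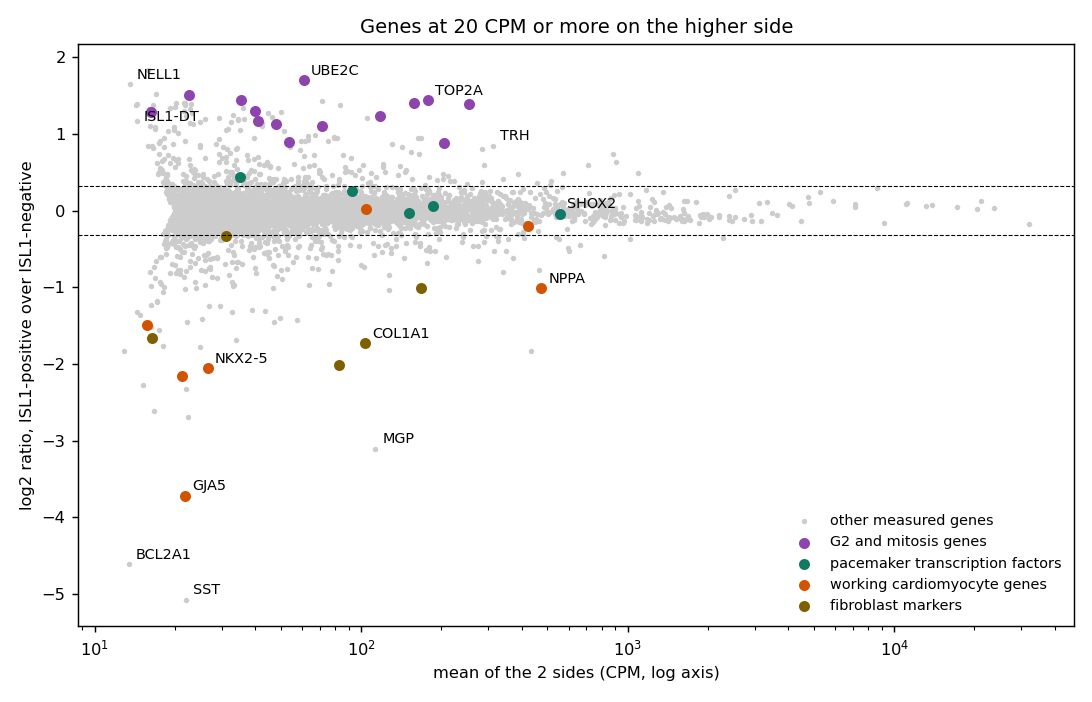
Each point is a measured gene, with the mean CPM of the sides (x, log axis) and the log2 ratio of ISL1-positive over ISL1-negative cells (y), and dashed lines at a ratio of 0.8 and at its inverse. G2 and mitosis genes lie above the upper line, working cardiomyocyte genes reach down to GJA5 at a ratio of 0.076, and SHOX2 lies near 0.

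The transcript that shares its start region with ISL1 went with it. ISL1-DT, a long noncoding RNA read in the opposite direction and listed in the files as AC010478.1, was named here after its values were seen. It reached 20.7 CPM in ISL1-positive cells and 7.96 CPM in ISL1-negative cells, a ratio of 2.61 (2.19 to 3.11). The ratio was 2.82, 2.63 and 2.80 in the 3 depth ranges and 2.90 depth-matched. Along the ISL1 scale it was 7.96, 12.1, 14, 16.9, 20.9 and 27.6 CPM in cells with 0, 1, 2, 3, 4 and 5 or more ISL1 UMIs. Thinned to 8000 UMIs per cell, 17.0% of ISL1-positive and 5.89% of ISL1-negative cells held a UMI of it, against 1.37% of the reference cells. In RefSeq's GRCh38.p14 annotation ISL1-DT covers chr5:51372736-51383332 on the minus strand and ISL1 covers chr5:51383448-51394730 on the plus strand, which leaves 115 bases between them. The 300 bases around the ISL1 start are shown because both transcripts begin in them, chr5:51383198-51383497, plus strand, with 2 CCAAT boxes, the letters bound by the factor NF-Y, in capitals.
ISL1 promoter: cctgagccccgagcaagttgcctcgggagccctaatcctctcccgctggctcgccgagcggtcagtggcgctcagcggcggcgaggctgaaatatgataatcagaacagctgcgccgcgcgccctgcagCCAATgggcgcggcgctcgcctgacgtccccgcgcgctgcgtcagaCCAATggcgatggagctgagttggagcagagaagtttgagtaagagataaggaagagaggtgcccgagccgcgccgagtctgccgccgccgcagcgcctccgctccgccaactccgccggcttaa
The boxes begin 121 and 75 bases before the ISL1 start and the ISL1-DT start lies 116 bases before it. CCAAT or its reverse ATTGG is present in 34.6% of the 35116 RefSeq promoter windows of this length, so its presence describes this window and no more.

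Of the 5 other transcription factors of the pacemaker programme, 1 was called higher and 4 lay between the limits. SHOX2, which represses NKX2-5 in the node, was 550 CPM in ISL1-positive and 567 CPM in ISL1-negative cells, a ratio of 0.971 (0.945 to 0.998). TBX3, which represses the working programme, was 190 CPM and 182 CPM, a ratio of 1.04 (0.994 to 1.09). The log2 ratio of TBX3 shifted with the cells used. It was 0.52 in cells of 8000 to 14000 RNA UMIs, past the limit for a call, and 0.19 depth-matched. Without cells holding GJA5, SST or BCL2A1 it was -0.26. TBX18, which acts in the formation of the node's head, was 100 CPM and 84.1 CPM, a ratio of 1.19 (1.11 to 1.27), just under the limit for a call. Its log2 ratio passed that limit in cells of 20000 to 30000 RNA UMIs (0.39) and at 5 or more ISL1 UMIs (0.36). In cells of 14000 to 20000 RNA UMIs it was 0.11. TBX5 had a ratio of 0.975, and TBX2, a repressor related to TBX3, was the 1 member of 5 called higher, at 40.2 CPM and 29.8 CPM (1.35, 1.21 to 1.5). TBX2 lay between the limits in cells of 20000 to 30000 RNA UMIs (1.15), depth-matched without cells in G2 or mitosis (1.21), and without cells holding GJA5, SST or BCL2A1 (1.22). The list's median log2 ratio was 0.06, and 0.19 depth-matched.

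Read the other way, ISL1 was 60.3, 74.5 and 82.3 CPM in cardiomyocytes with 0, 1 or 2, and 3 or more TBX18 UMIs. It was 65.2, 75 and 76.4 CPM at the same TBX3 counts, and 74.7, 73.5 and 68.7 CPM at the same counts of HCN4, the main pacemaker current channel. The intervals of the TBX3 classes at 1 or 2 and at 3 or more UMIs overlapped, 71.4 to 78.7 and 73.2 to 79.7 CPM. At 0, 1 or 2, and 3 or more SHOX2 UMIs it was 35.5 (24.4 to 49.8), 66.8 and 73.1 CPM, in 65, 226 and 4045 cells whose median depths were 13639, 12748.5 and 16583 RNA UMIs.

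Ion channels and receptors of the node were likewise mostly between the limits. HCN4 was 96.3 CPM in ISL1-positive and 107 CPM in ISL1-negative cells (0.897, 0.841 to 0.956). Of 15 measured node genes, 3 were higher and 1 was lower, with a median log2 ratio of 0.06. The higher ones were ADRB1, the beta-1 adrenergic receptor, at 67.4 CPM and 44.3 CPM (1.52, 1.40 to 1.66); CHRM2, the muscarinic receptor that slows the heart, at 131 CPM and 96.4 CPM (1.35, 1.28 to 1.44); and CACNA1D, an L-type calcium channel of the node, at 122 CPM and 94.4 CPM (1.30, 1.22 to 1.38). KCNJ3, a subunit of the potassium channel that CHRM2 opens, was lower at 34.2 CPM and 62.1 CPM (0.551, 0.498 to 0.610), while its partner KCNJ5 had a ratio of 1.04. ADRB1 and KCNJ3 kept their calls in each of the 3 depth ranges, with ratios of 1.38, 1.57 and 1.53 for ADRB1 and 0.675, 0.504 and 0.548 for KCNJ3. CHRM2 kept its call too, with log2 ratios of 0.52, 0.42 and 0.42. CACNA1D lay between the limits in cells of 8000 to 14000 RNA UMIs, at a log2 ratio of 0.03.

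Genes of working atrial muscle were lower in ISL1-positive cells. Of 12 genes on the working list, 7 were measured and 5 of these were lower, with none higher and a median log2 ratio of -1.49 against -0.01 for all measured genes. Depth-matched, 8 were measured and 6 were lower, the sixth being SLN, the inhibitor of the calcium pump. For SLN 10 cells held 78% of the ISL1-negative UMIs, and its ratio was 0.941 in cells of 8000 to 14000 RNA UMIs. GJA5, the atrial connexin of fast conduction (chr1:147756199-147773351), was 3.09 CPM in ISL1-positive cells and 40.7 CPM in ISL1-negative cells, a ratio of 0.076 (0.0549 to 0.103). NKX2-5 (chr5:173232109-173235206) was 10.3 CPM and 42.9 CPM (0.241, 0.202 to 0.286). Both were low in ISL1-positive cells at every depth, with ratios of 0.0943, 0.244 and 0.376 for NKX2-5 in the 3 ranges, and the ratio of GJA5 was 0.0593, 0.0915 and 0.0763.

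KCNA5, the atrial ultrarapid potassium channel, was 8.30 CPM in ISL1-positive and 23.3 CPM in ISL1-negative cells (0.357). NPPA, the atrial natriuretic peptide, was 314 CPM and 634 CPM (0.496, 0.480 to 0.512). NPPA differed in amount more than in the number of cells, since 55.2% of thinned ISL1-positive and 57.8% of thinned ISL1-negative cells held a UMI, and the reference cells 8.07%. In thinned cells GJA5 was found in 2.20% of ISL1-positive and 18.2% of ISL1-negative cells. The share in ISL1-positive cells was no higher than the 3.61% of the reference cells, and whether it is background was not tested. NKX2-5 was found in 4.81% and 16%, against 0.275% of the reference cells. Unthinned, GJA5 was found in 4.26% and 24.7%. ADM and PAM had ratios of 1.02 and 0.870.

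The promoter windows of GJA5 and NPPA are shown because both are targets of NKX2-5 in the heart and both were called lower, as NKX2-5 was. Whether their levels follow from that of NKX2-5 was not tested. AAGTG, the core letters that NKX2-5 binds, or its reverse CACTT is in capitals. The GJA5 window is chr1:147773302-147773601 and the NPPA window chr1:11847734-11848033, both on the minus strand of GRCh38.p14 (RefSeq).
GJA5 promoter: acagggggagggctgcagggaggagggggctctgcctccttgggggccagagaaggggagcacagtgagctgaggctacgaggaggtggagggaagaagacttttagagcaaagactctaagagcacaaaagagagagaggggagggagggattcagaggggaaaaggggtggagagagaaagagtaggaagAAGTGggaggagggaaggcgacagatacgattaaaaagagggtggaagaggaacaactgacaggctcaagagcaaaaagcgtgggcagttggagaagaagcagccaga
NPPA promoter: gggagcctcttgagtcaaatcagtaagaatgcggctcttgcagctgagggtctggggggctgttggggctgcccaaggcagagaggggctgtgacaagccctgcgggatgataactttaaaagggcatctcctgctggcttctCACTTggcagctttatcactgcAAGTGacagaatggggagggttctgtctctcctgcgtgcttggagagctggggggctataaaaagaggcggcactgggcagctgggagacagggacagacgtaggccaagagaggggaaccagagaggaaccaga
The GJA5 window shown holds 1 match, 58 bases before the start, and the NPPA window holds 2, at 107 and 85 bases before the start. The window of another GJA5 start, chr1:147760553-147760852, is not shown and holds 1 match, 151 bases before that start. Of the 35116 RefSeq windows, 43.1% hold the letters on either strand.

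Venous pole genes split. OSR1, a zinc finger factor of the posterior second heart field, was 4.71 CPM in ISL1-positive and 28.8 CPM in ISL1-negative cells (0.164, 0.126 to 0.210). It was not particular to cardiomyocytes, at 26.8 CPM in the reference cells. In thinned cells it was found in 3.16% of ISL1-positive, 14.4% of ISL1-negative and 17.3% of reference cells. PDGFRA, a growth factor receptor of the venous pole in mice, was higher at 69.0 CPM and 38.8 CPM (1.78, 1.63 to 1.94), and WNT5A, a noncanonical WNT ligand, at 48.2 CPM and 34.5 CPM (1.40, 1.27 to 1.54). Without cells holding GJA5, SST or BCL2A1, WNT5A lay between the limits at 1.2. Of the 15 measured genes of the second heart field list, 2 were higher and 3 were lower, with a median log2 ratio of -0.04. Factors that act with ISL1 in progenitors lay between the limits, with ratios of 0.917 for MEF2C, 1.02 for HAND2 and 0.847 for GATA6. Among LIM partners, LMO4, a LIM-only protein, was higher at 67.5 CPM and 53.3 CPM (1.27, 1.17 to 1.37), and LDB1, the cofactor that joins LIM homeodomain factors, was 23.9 CPM and 22.4 CPM (1.07).

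**Figure D3:**
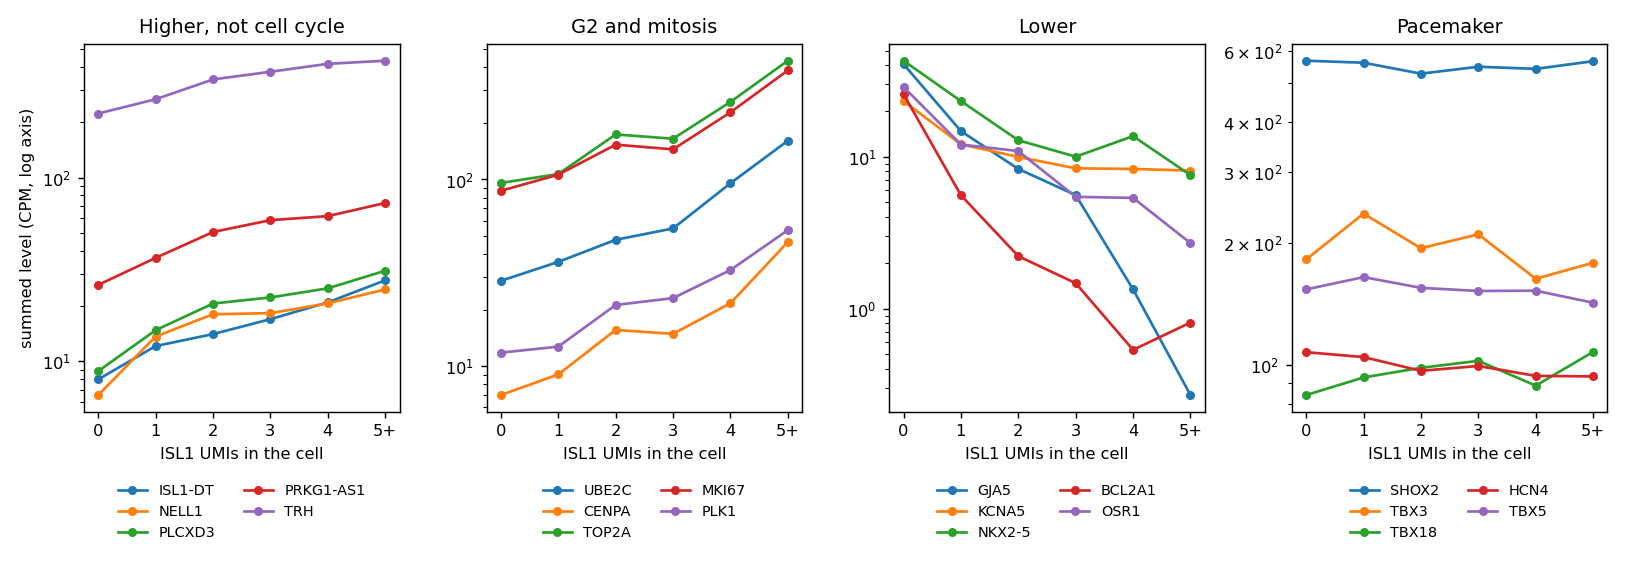
Summed level (y, CPM, log axis) of 5 genes per panel in cardiomyocytes with 0, 1, 2, 3, 4 and 5 or more ISL1 UMIs (x). ISL1-DT is at 27.6 CPM at the high end and 7.96 CPM at 0, GJA5 at 0.27 CPM and 40.7 CPM, and SHOX2 keeps near one level.

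GJA5 was graded along the ISL1 scale. It was 40.7, 14.8, 8.31, 5.60, 1.34 and 0.27 CPM in cells with 0, 1, 2, 3, 4 and 5 or more ISL1 UMIs, the last value resting on a single UMI. The cells just outside and just inside the limit of the ISL1-positive side, at 2 and 3 UMIs, therefore stood at 8.31 and 5.60 CPM. The same counts can be read the other way, which restates this association and adds no separate support. ISL1 was 80.1, 33.0 and 16.7 CPM in cardiomyocytes with 0, 1 or 2, and 3 or more GJA5 UMIs. The median depths of these cells were 16337.5, 16257 and 16453 RNA UMIs. ISL1 was 76.8, 57.4 and 32.4 CPM at the same counts of NKX2-5. NPPA showed no such order, with ISL1 at 70.0, 79.3 and 70.2 CPM.

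The 12 lowest ratios of all measured genes included GJA5, OSR1 and NKX2-5. Also among them, SST, the hormone somatostatin, was 1.27 CPM in ISL1-positive and 42.6 CPM in ISL1-negative cells (0.0297), but 10 cells held 95.9% of its UMIs on the ISL1-negative side and 1 of them held 436. BCL2A1, a protein that blocks cell death, was 1.05 CPM and 25.8 CPM (0.0409), with 8.75% of thinned ISL1-negative cells holding a UMI against 0.549% of ISL1-positive and 0.652% of reference cells. MGP, an inhibitor of calcification found in matrix, was 23.5 CPM and 202 CPM (0.116, 0.104 to 0.130), and was found in 7.01% and 20% of thinned cells, against 8.07% of the reference cells. COL14A1, a fibril-associated collagen, had a ratio of 0.154, COL1A2 0.249, DLK1, a NOTCH-like surface protein, 0.207, and LRRC10, a cardiac leucine-rich repeat protein, 0.280. For DLK1 10 cells held 67.4% of the ISL1-negative UMIs. Depth-matched, SST had a ratio of 0.0835 and DLK1 0.114.

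Several of these genes were found together in ISL1-negative cells. Of 231 ISL1-negative cells with a BCL2A1 UMI, 70.1% also held MGP, 45.5% OSR1 and 44.2% GJA5. Over all ISL1-negative cells 28.5% held MGP, 21.3% OSR1 and 24.7% GJA5. NPPA, also called lower, went the other way, in 41.6% of the 231 cells against 66.4% of all ISL1-negative cells. Of 60 ISL1-negative cells with an SST UMI, 23.3% held BCL2A1 and 20% GJA5, against 12.7% and 24.7% of all. A UMI of GJA5, SST or BCL2A1 was present in 7.97% of ISL1-positive (6.11 to 10.2%) and 33.8% of ISL1-negative cells (31.7 to 36.1%). When all cells with such a UMI were left out, a step chosen once their values were known, 241 genes were higher and 132 lower, and 118 of the 132 were among the 313. NKX2-5 then had a ratio of 0.304 and OSR1 0.191. CACNA1D and CHRM2 lay between the limits without these cells, at 1.06 and 1.22, and TBX3 at 0.835.

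Genes of the fibroblast list stood beside this group. All 5 measured markers of 10 were lower, and the list summed to 265 CPM in ISL1-positive and 623 CPM in ISL1-negative cells, against 5934 CPM in the reference cells. COL1A1 was 47.7 CPM and 159 CPM (0.301, 0.277 to 0.326), with 10 cells holding 26% of the ISL1-negative UMIs, and COL3A1 was 112 CPM and 225 CPM (0.497). In thinned cells COL1A1 was found in 20.7% of ISL1-positive and 30.3% of ISL1-negative cells, below the 45.9% of the reference cells. With only cells of at most 5 fibroblast-list UMIs, 187 genes were lower and 306 higher. Because the list was highest in the reference cells, it does not single out RNA of fibroblasts in this culture. The part of such RNA in the lower genes was not tested beyond this.

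The genes with the highest ratios in all cells of both sides were mostly those of cell division. Of the 12 highest, 10 act in mitosis or its preparation, among them CENPA, the centromere histone, at 24.8 CPM in ISL1-positive and 6.99 CPM in ISL1-negative cells (3.55, 2.98 to 4.24), and UBE2C, the ubiquitin enzyme of the anaphase complex, at 93.1 CPM and 28.6 CPM (3.25, 2.98 to 3.55). TOP2A, which untangles chromosomes, was 260 CPM and 95.8 CPM (2.71), and MKI67, the proliferation antigen, 229 CPM and 87.0 CPM (2.64). PLK1, CCNA2, ASPM, NUF2, TTK and CDCA8 had ratios of 2.84, 2.72, 2.70, 2.66, 2.64 and 2.64. Depth-matched, CENPA had a ratio of 2.48, UBE2C 2.15, MKI67 1.76 and TOP2A 1.74. NELL1, PLCXD3 and PRKG1-AS1, described below, then stood above them at 3.46, 2.91 and 2.51. All 14 G2 and mitosis genes of the list were higher, with ratios of 1.84 to 3.25 and a median log2 ratio of 1.29, and all 14 stayed higher depth-matched, at 1.41 to 2.15 and a median of 0.84. Of 11 measured S phase genes 8 were higher, but depth-matched only 1 was, and the median log2 ratio was 0.01, against 0.39 in all cells.

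Dividing cells were also deeper, with a median of 19695 RNA UMIs in cardiomyocytes with 10 or more UMIs of the G2 and mitosis list and 16018 in the others. Cells with 10 or more UMIs of the G2 and mitosis list were 25.4% of ISL1-positive (22.3 to 28.7%) and 13.7% of ISL1-negative cells (12.1 to 15.4%). Thinned to 8000 UMIs, 25% and 14.4% held 5 or more. In the 3 depth ranges the shares were 20% and 9.57%, 15.1% and 10.8%, and 37.2% and 29.2%. ISL1 itself was 82.8 CPM in all cardiomyocytes with 10 or more such UMIs and 69.8 CPM in those below. Without these cells and depth-matched, 182 of 6372 genes (2.86%) were higher and 454 (7.12%) were lower, and 112 of the 182 were among the 318.

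**Figure D4:**
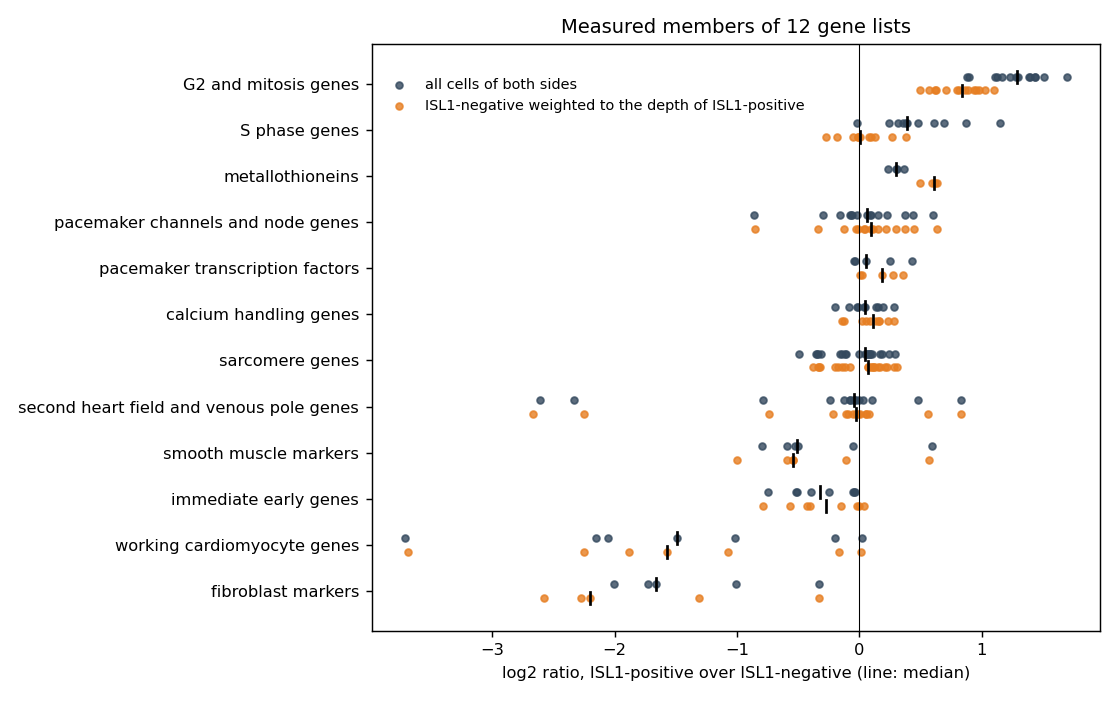
Log2 ratio of ISL1-positive over ISL1-negative cells (x) for each measured member of 12 gene lists (rows), in all cells and with the ISL1-negative cells weighted to the depth of the ISL1-positive cells; black lines are medians over the members measured in all cells. The G2 and mitosis median is 1.29 in all cells and 0.84 depth-matched, the S phase median 0.39 and 0.01, and the fibroblast median -1.66 and -2.20.

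Besides dividing cells, a set of genes without a shared list was higher. NELL1, a secreted protein with EGF-like repeats (chr11:20669551-21575686), was 20.5 CPM in ISL1-positive and 6.54 CPM in ISL1-negative cells (3.14, 2.61 to 3.79), with ratios of 3.09, 3.36 and 2.89 by depth range. PLCXD3, a phospholipase-like protein, was 25.2 CPM and 8.82 CPM (2.86, 2.43 to 3.37), with 1.64, 2.53 and 3.44. PRKG1-AS1, a noncoding RNA, was 63.1 CPM and 26 CPM (2.42, 2.20 to 2.67), and TRH, thyrotropin-releasing hormone, was 402 CPM and 223 CPM (1.80, 1.74 to 1.87). These 4 were in the 12 highest when cells in G2 or mitosis were left out and depth was matched. So were PTGER3, a prostaglandin E2 receptor (2.12 in all cells), C1orf105 (1.88), CACHD1 (1.93), KCNJ8, a subunit of ATP-sensitive potassium channels (1.80), WIPF3 (1.77), COLQ, the collagen tail of acetylcholinesterase (1.75), and KCNG1, a modifying potassium channel subunit (1.65).

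The twelfth, SMOC1, was not measured in all cells at 18.4 CPM and 7.02 CPM, and its ratio was 0.838, 1.56 and 5.73 by depth range. Without the cells that held GJA5, SST or BCL2A1, NELL1 had a ratio of 2.32, PLCXD3 2.31, PRKG1-AS1 1.99 and TRH 1.46, and KCNJ8 and KCNG1 1.42 and 1.26. Few reference cells held these transcripts after thinning, 3.16% for NELL1, 0.481% for PLCXD3, 0.618% for PRKG1-AS1 and 3.47% for TRH, against 16.3%, 13.3%, 31.7% and 59.8% of ISL1-positive and 4.24%, 6.0%, 14.9% and 44.7% of ISL1-negative cells.

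Most contractile and metabolic genes lay between the limits. In all cells of both sides, sarcomere genes were called lower more often than the 4.83% of all measured genes, but this did not hold in every setting. Of 21 measured sarcomere genes none was higher and 4 were lower, among them CSRP3, a muscle LIM protein, at 495 CPM in ISL1-positive and 695 CPM in ISL1-negative cells (0.712), TNNI3, the mature troponin I, at 474 CPM and 602 CPM (0.788), and ACTA2, smooth muscle actin (0.783). TTN, the giant spring protein, had a ratio of 1.23. Depth-matched, 3 sarcomere genes were lower and none was higher. With cells in G2 or mitosis also left out, 1 was lower and 2 were higher, where 7.12% of all measured genes were lower. None of 10 calcium handling, 12 glycolysis, 14 oxidative phosphorylation and 13 mitochondrially encoded genes was called. Among ventricular genes CKM, muscle creatine kinase, was higher at 1281 CPM and 912 CPM (1.41, 1.38 to 1.43), while CKB, the brain form, was 259 CPM and 372 CPM (0.697) and FHL2 had a ratio of 0.747, which was 0.802 depth-matched. The metallothioneins, metal-binding proteins, had 1 of 4 higher in all cells and 4 of 4 depth-matched, with MT2A at 513 CPM and 398 CPM (1.29, and 1.55 depth-matched). MT2A lay at 1.01 without the cells that held GJA5, SST or BCL2A1.

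Smooth muscle genes split by gene. MYH11, smooth muscle myosin, was higher at 855 CPM in ISL1-positive and 566 CPM in ISL1-negative cells (1.51, 1.48 to 1.55), and 87.0% and 59.4% of thinned cells held it, against 12.2% of the reference cells. TAGLN, an actin-binding protein, was lower at 250 CPM and 433 CPM (0.576), and MYLK, the myosin light chain kinase, at 648 CPM and 976 CPM (0.664). CALD1 and LMOD1 were lower too, so that 1 of 6 measured members was higher and 4 were lower. Without the cells that held GJA5, SST or BCL2A1, MYH11 had a ratio of 1.16 and LMOD1 0.859, both between the limits.

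Secreted WNT antagonists were lower in ISL1-positive cells. SFRP1 was 558 CPM and 764 CPM in ISL1-positive and ISL1-negative cells (0.730), SFRP5, an early marker of sinus venosus precursors in mice, 42.9 CPM and 84.2 CPM (0.509), and DKK3 213 CPM and 269 CPM (0.790). They made up 3 of the 4 measured members of the WNT list, which does not hold WNT5A. Of the retinoic acid genes, 1 of 6 was higher, MEIS2, a homeodomain cofactor, at 243 CPM and 187 CPM (1.30), and 2 were lower, with CRABP2, a retinoic acid carrier, at 16.2 CPM and 51.9 CPM (0.311). CRABP2 stood at 384 CPM in the reference cells. FGF9, a growth factor, was the 1 of 7 FGF, NOTCH and hedgehog genes called higher, at 25 CPM and 16.2 CPM (1.54).

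Axon guidance and adhesion genes were called in both directions, 3 of 12 higher and 4 lower. CNTN4, an adhesion protein of axons, had a ratio of 1.60, SLIT2, a repellent ligand, 1.38, and EFNB2, a ligand of EPH receptors, 1.38. PCDH7, a protocadherin, was 25.1 CPM in ISL1-positive and 68.7 CPM in ISL1-negative cells (0.365), and SEMA6D, a semaphorin, 12.2 CPM and 23.1 CPM (0.525). Of 8 measured immediate early genes, which respond to dissociation, 4 were lower, with ATF3 at 29.8 CPM and 50.1 CPM (0.595) and JUNB at 145 CPM and 207 CPM (0.700). Of the markers of other cell types below, none was called. Epicardial markers summed to 45.8 CPM and 51.4 CPM, endothelial to 6.75 CPM and 10.6 CPM, neural to 44.6 CPM and 41.0 CPM, and blood to 2.60 CPM and 3.67 CPM. No endothelial or blood marker was measured, and 1 epicardial and 1 neural marker was. The 4 measured epithelial and amnion markers that the rule did not use lay between the limits, and their list summed to 725 CPM and 801 CPM, against 10402 CPM in the reference cells.

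CD34 protein, read through the antibody tag and not used by the rule, was found on cells of both sides. The median was 103 tag UMIs (quartiles 50 and 319) on ISL1-positive and 77 (44 and 250.5) on ISL1-negative cells. Cells with 100 or more were 51.0% (47.3 to 54.7%) and 43.6% (41.3 to 45.9%), against 3.71% of the reference cells. Per 10000 RNA UMIs the medians were 54.7 and 52.7. This scaling lowers the deeper side, because tag counts did not rise in step with RNA depth. Over the 3 depth ranges the unscaled medians were 113, 91.5 and 118 on ISL1-positive and 66, 86 and 84 on ISL1-negative cells. In the 3 depth ranges, 53.3% of ISL1-positive and 41.7% of ISL1-negative cells, 47.8% and 45%, and 53.4% and 43.7% had 100 or more tag UMIs, and the intervals of the sides overlapped in each range. The share was not ordered along the ISL1 scale, with 43.6%, 51.5%, 48.5%, 55.5%, 50.3% and 42.8% at 0, 1, 2, 3, 4 and 5 or more ISL1 UMIs.

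TBX3 went with the tag on both sides. At 0, 1 or 2, 3 to 5 and 6 or more TBX3 UMIs, 22.3%, 45.2%, 65.9% and 83.8% of ISL1-positive cells had 100 or more tag UMIs, against 20.1%, 39.1%, 62.3% and 85.4% of ISL1-negative cells. Within each TBX3 class the intervals of the sides overlapped, for example 77.1 to 89.1% and 81.1 to 89.1% at 6 or more. The CD34 transcript was 7.24 CPM and 7.99 CPM, a ratio of 0.906 (0.711 to 1.15).

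**Figure D5:**
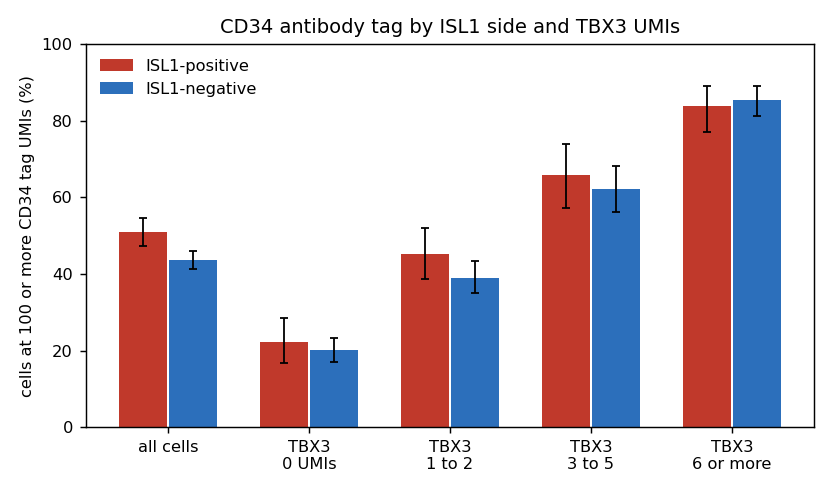
Share of cells with 100 or more CD34 tag UMIs (y, %) in ISL1-positive and ISL1-negative cardiomyocytes, over all cells and by TBX3 UMIs (x); bars are shares and whiskers exact 95% intervals. The share with 100 or more tag UMIs differs more between TBX3 classes, 22.3% to 83.8% in ISL1-positive cells, than between the sides within a class.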

How the data were processed

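One culture gave an RNA library and an antibody-tag library in 1 shared matrix. The deposited values are whole-number UMI counts for 36601 genes and 1 CD34 tag, not normalized by the authors. Per the submitters' processing notes, Cell Ranger 6.1.2 and the build GRCh38 were used; whether counting used strand is not given in the sources used here, so overlapping and antisense genes are uncertain. The barcodes held 239181462 RNA UMIs and 2773855 tag UMIs. From the deposited counts, sums over cells, CPM, ratios with conditional binomial 95% intervals and shares after thinning to 8000 UMIs (seed 1) were computed with Python 3.11.15, numpy 2.4.6, scipy 1.17.1 and pandas 2.3.3. Depth matching weighted ISL1-negative cells in bins of 2000 UMIs. Doublets were called with Scrublet (scanpy 1.11.5) as an alternative only. The comparison was tested on simulated data. Named genes were the 12 highest and 12 lowest ratios, leaving out ISL1, mitochondrial and ribosomal protein genes, the 12 highest without cells in G2 or mitosis (added after the data were seen), and members of 31 lists outside 0.8 to 1.25 or asked about; some are not reported here. The members and lists were chosen with earlier results of these data known. Coordinates and promoters are from RefSeq (GRCh38.p14). In all, 23 gene-ratio alternatives listed at the start and 3 added later were run, with 4 kinds for the tag.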

Additional observations from a re-analysis of the deposited data

How the results depend on the processing

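No paired analysis was possible because all cells came from 1 culture and no test was made. The counts of 318 higher and 313 lower genes depended most on the limits: they were 525 and 570 with a floor of 10 CPM, 143 and 139 at 50 CPM, 3507 and 4459 with no floor, and 146 and 125 at a fold of 1.5. With 5 or more ISL1 UMIs for the ISL1-positive side they were 581 and 559, and with ISL1 called on thinned cells 193 and 203. Cells of 8000 to 14000 UMIs, only 90 and 669, gave 819 and 827. The lower count was 201 with up to 1 ISL1 UMI on the ISL1-negative side and 485 in cells of 20000 to 30000 UMIs. Without cycling cells (155 and 619 left) the lower count was 681, and with at most 5 fibroblast-list UMIs 187. It was 132 without cells holding GJA5, SST or BCL2A1; matched for depth as well, 147 were higher and 172 lower. Depth-matched without cells in G2 or mitosis, 182 were higher. Leaving out those cells takes mitosis transcripts from both sides by construction. UBE2C, PLK1 and ASPM then kept ratios above 1, at 1.21, 1.11 and 1.05. In the same setting these turned round on the log2 scale: CENPA -1.30, CCNA2 -0.22, TOP2A -0.15, NUF2 -0.90, TTK -0.30, CDCA8 -0.19, MKI67 -0.36, CCNB1 -0.15, HMGB2 -0.034 and the S phase gene TYMS -0.082. Without cycling cells CENPA and CCNA2 were both at -0.85, PLK1 -0.58, ASPM -0.999, CDCA8 -0.069, CCNB1 -0.71 and HMGB2 -0.45. The CD34 tag shares left the counting interval of their side only by TBX3 class. They were 22.3%, 45.2%, 65.9% and 83.8% in ISL1-positive and 20.1%, 39.1%, 62.3% and 85.4% in ISL1-negative cells. By depth range they varied within it, from 47.8% to 53.4% and from 41.7% to 45%. Over 98 named genes, 2144 values were recomputed, of which 1230 stayed within the counting interval, 897 moved past it and 17 values of called genes reversed. Some of the 897, of uncalled genes such as TBX3, changed sign. At the mean level a cell with 8000 UMIs would hold 0.579 ISL1 UMIs, so depth limits the ISL1 call itself.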
